A study of Homo sapiens with 6 samples.

Results

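IRF8 and 8 related genes were followed in the human monocytic leukaemia line THP-1 as supplied by 2 cell banks. The 9 genes were taken by name: IRF8, IRF4, IRF1, IRF2 and IRF5 of the interferon regulatory factors, the IRF2 cofactor IRF2BP2, and the basic leucine zipper factors BATF, BATF2 and BATF3. They are 9 of the 34918 genes to which the deposited transcripts could be assigned. Poly(A) RNA was sequenced from 3 cultures of THP-1 obtained from ATCC and 3 of THP-1 obtained from DSMZ. All 6 cultures were untreated and grew side by side in RPMI with 20% fetal bovine serum, for 48 h and, once split, for another 24 h. The labels call the expansions of each source independent but name no separate thaws, so p-values measure the spread between these cultures. Each source is 1 stock of the line, so what belongs to a bank and what belongs to the particular cells received cannot be told apart.

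Interferon regulatory factors (IRFs) bind DNA through a shared amino-terminal domain that recognises GAAA repeats, the core of interferon-stimulated response elements. IRF8 and IRF4 bind weakly alone and act mainly with a partner, either the ETS factor PU.1 (gene SPI1) or a dimer of a BATF protein with a JUN protein, on composite elements. In the myeloid lineage IRF8 is known for directing progenitors to monocytes and type 1 dendritic cells, and BATF3 for keeping IRF8 on in the latter.

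The libraries held 23413428 to 37119721 estimated counts, and 14572 genes were abundant enough to test. Of these, 49.8% differed between the sources at an adjusted p under 0.05 (edgeR quasi-likelihood test, Benjamini-Hochberg), 24.1% being higher in DSMZ and 25.7% higher in ATCC. In 62.4% the 3 ATCC values and the 3 DSMZ values did not overlap. Correlations of log2 CPM (counts scaled to the library total, with TMM factors) were 0.977 to 0.995 within ATCC, 0.996 to 0.997 within DSMZ and 0.926 to 0.941 between them. ATCC replicate 2 lay away from replicates 1 and 3 of its source. Against the mean of those replicates, it was a median of 0.87 lower on the log2 scale in genes of lowest GC content. In genes of highest GC content it was 0.33 higher. Without it, the log2 differences (DSMZ minus ATCC) were -1.01 for IRF8, -1.14 for IRF5, 0.94 for IRF1, -0.31 for IRF2BP2, -1.48 for BATF, -1.63 for BATF2 and -1.33 for BATF3, and all 7 stayed past the threshold.

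Monocyte-lineage markers were present in all libraries, with the myeloid factor CEBPA at 469 ± 78.4 CPM in ATCC and 424 ± 6.90 in DSMZ (SD, n = 3) and lysozyme (LYZ) at 293 ± 106 and 342 ± 50.8. Of the 10 monocyte markers, CSF1R and MPO were higher in DSMZ and CD14, CD33, FCGR1A and SPI1 higher in ATCC. MPO had 10.9 ± 0.996 CPM in ATCC and 90.4 ± 17.7 in DSMZ. CD14 was low in both sources, at 1.32 ± 0.372 CPM in ATCC and 0.334 ± 0.0929 in DSMZ. Summed over the 10 markers, the level was 1160 to 1678 CPM in ATCC and 1284 to 1418 in DSMZ. Only 2 of them were higher in ATCC without DSMZ replicate 1 or 3, and only 1 was higher in DSMZ without ATCC replicate 1 or 3 or DSMZ replicate 1 or 2. The summed level of 10 B and plasma cell markers was 10.98 to 11.96 CPM in ATCC and 20.9 to 24.3 in DSMZ, with PAX5, CD79A and CD79B higher in DSMZ, EBF1 and SDC1 higher in ATCC, and MS4A1 and IGHM at 0 in all libraries. The 8 T and NK cell markers summed to 15.3 to 18.4 CPM in ATCC and 6.34 to 9.62 in DSMZ, with CD247, NKG7 and NCAM1 higher in ATCC and CD3E at 0. The 6 plasmacytoid dendritic cell markers summed to 37.9 to 58.3 and 31.2 to 36.6 CPM, with IL3RA higher in ATCC and CLEC4C and GZMB at 0. The part of these marker genes in the results below was not tested.

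Of the 9 genes, 8 could be tested and 7 differed between the sources, which is 87.5% beside 49.8% of all tested genes. IRF1 was higher in DSMZ, the direction of 24.1% of all tested genes, and 6 were higher in ATCC (IRF8, IRF5, IRF2BP2, BATF, BATF2 and BATF3), the direction of 25.7%. IRF2 did not pass, and IRF4 was too low to test. In these 7 genes the libraries of the 2 sources did not overlap, beside 62.4% of all tested genes. Their differences were also large: 5 of the 8 passed the test with a log2 difference of at least 1 in size, which 21.3% of all tested genes did, and the median log2 difference of the 8 was -1.21 beside 0.01 over all tested genes. These are counts over genes picked by name and carry no test of their own. In bulk RNA, fewer cells expressing a gene and less RNA per cell cannot be told apart.

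**Figure D1:**
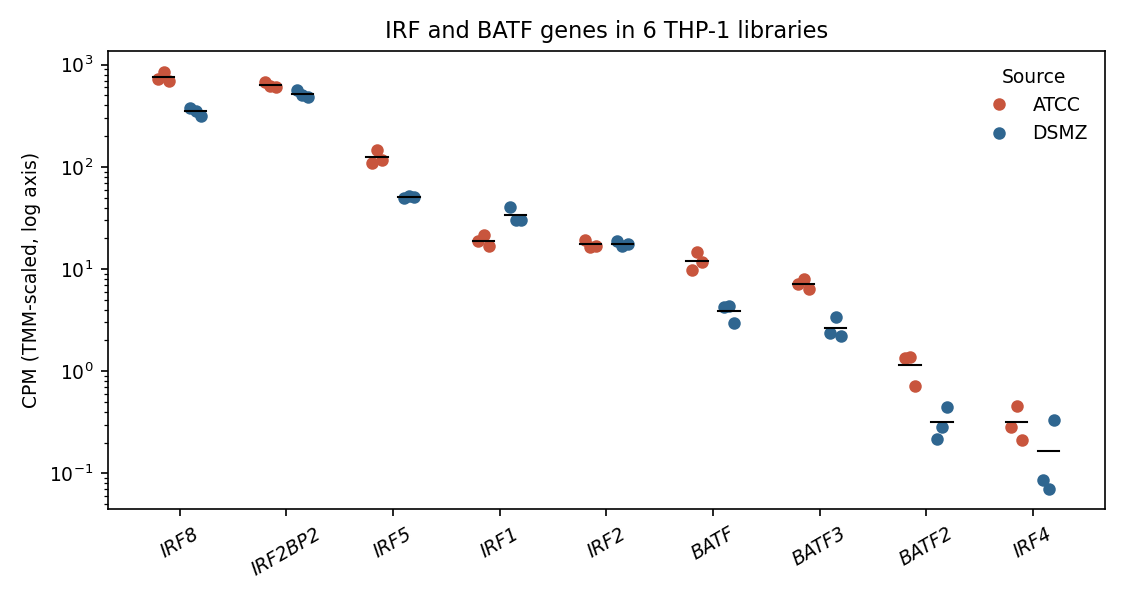
Level of each of the 9 genes in each of the 6 libraries, in TMM-scaled CPM on a log axis, with a black line at the mean of the 3 libraries of a source. The ATCC points lie above the DSMZ points for IRF8, IRF2BP2, IRF5, BATF, BATF3 and BATF2 and below them for IRF1, while the points of IRF2 and IRF4 overlap.

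IRF8 was, per transcript length, the most abundant of the 9 in both sources, and it was lower in DSMZ by more than 1 log2 unit. The gene (ENSG00000140968) lies on the plus strand of chromosome 16, 85898803 to 85922609 in GRCh38. Its levels were 718, 857 and 696 CPM in ATCC replicates 1 to 3 and 378, 353 and 316 CPM in DSMZ. The lowest ATCC library was well above the highest DSMZ library. The means were 757 ± 87.3 and 349 ± 31.0 CPM (SD, n = 3), a 2.17-fold higher level in ATCC (log2 difference -1.12 ± 0.11 SE, 95% interval -1.38 to -0.85, edgeR adjusted p = 0.000199). Per transcript length, IRF8 had 601 TPM (abundance per unit of length, scaled to a fixed total) in ATCC and 268 in DSMZ, ranks 224 and 472 among the 34918 genes.

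The IRF8 reads were assigned mainly to 3 annotated transcripts, and all 3 were lower in DSMZ. The full-length transcript IRF8-201 had 243 ± 20.1 TPM in ATCC and 113 ± 13.2 in DSMZ. A short coding model of 531 bases inside the gene, IRF8-205, had 241 ± 14.2 and 108 ± 7.28 TPM. It held 40.1% of the gene's TPM in ATCC and 40.3% in DSMZ, but a small part of its counts. These were 1333, 1432 and 1301 in ATCC and 557, 608 and 786 in DSMZ. IRF8-201 had 15620, 17490 and 15220 counts in ATCC and 6993, 7910 and 8867 in DSMZ. IRF8-208, which starts further downstream, had 97.5 ± 12.8 and 37.2 ± 1.46 TPM, and its share of the gene's TPM was 16.2% ± 0.964 in ATCC and 13.9% ± 0.673 in DSMZ without overlap. kallisto divides reads between overlapping transcripts by estimate, so these shares are a description with no test.

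The genes around IRF8 had a median near 0. The 83 tested genes within 5 Mb of it had a median log2 difference of -0.10, 20 being higher in ATCC and 11 in DSMZ, and only 5 of them lay lower than IRF8. Its pattern over the 6 libraries was matched most closely by NOTCH2, a Notch receptor, with a root mean square difference of 0.012 between their centred log2 CPM values. NOTCH2 had 332 ± 34.7 CPM in ATCC and 153 ± 12.7 in DSMZ (log2 difference -1.12). GSDMD, which encodes the pore-forming gasdermin D, followed at 0.040, NOTCH1 at 0.042, CSRP1 at 0.043 and DAGLA at 0.044. The search covered 9605 protein-coding genes of at least 8 CPM, and 73 of them came within 0.1 of IRF8.

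IRF4, the lymphoid relative of IRF8, was at the edge of detection. It had 8, 12 and 6 counts in the ATCC libraries and 2, 2 and 12 in the DSMZ libraries. The 2 sources overlapped, since 1 DSMZ library equalled the highest ATCC library in counts. The sums of 26 and 16 counts gave an ATCC to DSMZ ratio of 1.71 (95% interval from counting error alone 0.885 to 3.42), and no difference was detectable at this depth. In TPM, IRF4 was at 0.066, 0.099 and 0.048 in ATCC and 0.019, 0.016 and 0.174 in DSMZ. The highest is DSMZ replicate 3, where short non-coding models of the gene with under 1 estimated count each (IRF4-202 and IRF4-205) held most of the TPM. The 25 tested genes within 5 Mb of IRF4 on chromosome 6 had a median log2 difference of 0.65, with 16 higher in DSMZ and 0 higher in ATCC.

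IRF1, an activator that interferon gamma switches on, was the only one of the 9 genes higher in DSMZ. The gene (ENSG00000125347) lies on the minus strand of chromosome 5, 132481609 to 132490798. Its levels were 18.7, 21.4 and 16.6 CPM in ATCC and 40.8, 30.2 and 30.4 CPM in DSMZ. Every DSMZ library was above every ATCC library, and DSMZ replicate 1 was the highest. The means were 18.9 ± 2.41 and 33.8 ± 6.09 CPM, a log2 difference of 0.84 ± 0.16 SE (95% interval 0.46 to 1.21, edgeR adjusted p = 0.00372).

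The main transcript IRF1-202 had 7.53 ± 0.670 TPM in ATCC and 13.1 ± 3.37 in DSMZ, and IRF1-201 had 1.91 ± 0.314 and 3.24 ± 0.369. These 2 transcripts, which held most of the gene's TPM, were higher in every DSMZ library than in any ATCC library. The shorter coding transcript IRF1-203 overlapped between the sources, at 1.77, 1.11 and 0.695 TPM in ATCC and 0.943, 0.729 and 1.46 in DSMZ. Genes within 5 Mb had a median log2 difference of -0.01 (54 genes), and 4 of them were above IRF1. On the opposite strand IRF1 overlaps C5orf56, which had 2.73 CPM in ATCC and 5.13 in DSMZ (log2 difference 0.90), and AC116366.3, at 16.6 and 13.8 CPM (log2 difference -0.27). These 2 are named because of that overlap. The kit is stranded per the labels, but the sources used here do not state the strand setting of the quantification, so reads of IRF1 and of its antisense neighbours cannot be told apart with certainty.

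The stretch upstream of the first annotated start of IRF1 is shown because interferon gamma acts on this gene through a gamma-activated sequence (GAS), and 1 match to its letters TTCNNNGAA lies there. The sequence (RefSeq, GRCh38.p14, minus strand, chr5:132490799-132491023) is written 5′ to 3′ with the match in capitals.
IRF1 upstream: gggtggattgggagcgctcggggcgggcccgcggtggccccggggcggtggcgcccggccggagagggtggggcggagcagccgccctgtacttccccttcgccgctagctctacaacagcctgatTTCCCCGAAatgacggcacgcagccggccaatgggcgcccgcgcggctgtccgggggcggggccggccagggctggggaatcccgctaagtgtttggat
The match begins 124 bases before the RefSeq start at 132490773. Of 35116 RefSeq promoter windows of 300 bases (250 before and 50 after a start), 7.66% hold these letters on either strand, so the match is a description of the sequence and not of binding.

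Of 8 genes of the interferon gamma receptor path, all tested, 1 was higher in DSMZ, the feedback inhibitor SOCS3 (1.39 ± 0.119 CPM in ATCC and 2.54 ± 0.663 in DSMZ, edgeR adjusted p = 0.0161), and 0 were higher in ATCC, beside 49.8% of all tested genes that passed in either direction. The other 7, among them the receptor chains IFNGR1 and IFNGR2 and the kinases JAK1 and JAK2, did not pass, and the median log2 difference of the 8 was 0.01, as over all tested genes. The counts moved with single libraries: without ATCC replicate 2, 3 genes of this list were higher in ATCC, and SOCS3 did not pass without ATCC replicate 3 or without DSMZ replicate 1.

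IRF2, which binds the same elements as IRF1 and represses many of its targets, differed little between the sources. It had 19.0, 16.4 and 16.9 CPM in ATCC and 18.8, 16.9 and 17.6 CPM in DSMZ. The DSMZ range lay inside the ATCC range. The log2 difference was 0.03 ± 0.11 SE with a 95% interval of -0.23 to 0.28 (edgeR adjusted p = 0.853). The ratio of IRF1 counts to IRF2 counts within a library needs no scaling between libraries, and it was 0.980, 1.31 and 0.985 in ATCC and 2.17, 1.79 and 1.72 in DSMZ. IRF1 was thus near IRF2 in the ATCC cultures and above it in every DSMZ culture.

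The ratio of IRF8 counts to IRF1 counts separated the sources more widely, at 38.52, 39.99 and 41.82 in ATCC and 9.25, 11.7 and 10.4 in DSMZ. IRF8 and IRF1, which can share response elements, thus moved in opposite directions. The ratio of IRF8 to IRF5, in contrast, was 6.65, 5.79 and 5.95 in ATCC and 7.59, 6.84 and 6.25 in DSMZ. Those ranges overlap.

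IRF5, which acts downstream of Toll-like receptors and drives inflammatory cytokine genes in macrophages, was 2.46-fold higher in ATCC. The gene (ENSG00000128604) lies on the plus strand of chromosome 7, 128937612 to 128950035. Its levels were 108, 148 and 117 CPM in ATCC and 49.8, 51.6 and 50.6 CPM in DSMZ. The DSMZ libraries lay within a narrow range, and the lowest ATCC library was far above them. The means were 124 ± 20.9 and 50.6 ± 0.908 CPM, a log2 difference of -1.30 ± 0.13 SE (edgeR adjusted p = 0.000199). The 44 genes within 5 Mb had a median log2 difference of -0.04.

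IRF5 is read from several first exons, and the 3 classes of start that held nearly all of its TPM were lower in DSMZ. The 9 transcripts whose first exon shares its end with that of IRF5-203 summed to 49.3, 67.4 and 58.2 TPM in ATCC and 16.7, 21.4 and 20.6 TPM in DSMZ. IRF5-213, which begins further upstream, had 19.2, 23.1 and 20.9 TPM in ATCC and 9.40, 9.30 and 11.9 TPM in DSMZ. The 4 transcripts that start further downstream summed to 12.2, 17.7 and 13.9 TPM in ATCC and 8.58, 9.22 and 5.59 in DSMZ. In none of these 3 classes did the 2 sources overlap. IRF5-201, which has a start of its own, was below 1 TPM in all libraries and overlapped between the sources. The share of IRF5-203 within the gene's TPM was 19.0% ± 2.40 in ATCC and 9.35% ± 1.68 in DSMZ, again without overlap.

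IRF5-213 and IRF5-203 also differ by 48 coding bases, a whole number of codons, at chr7:128947230-128947277 (GRCh38, plus strand). The stretch is in capitals with the coding bases on either side (GENCODE 29 transcripts), and the second line is the join without it.
IRF5-213: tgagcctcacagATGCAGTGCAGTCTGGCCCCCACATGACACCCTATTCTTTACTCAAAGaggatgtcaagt
IRF5-203: tgagcctcacagaggatgtcaagt
The transcripts compared reach the last exon and were classed as keeping the stretch or leaving it out. Of their summed TPM, the share without the stretch was 59.5, 61.6 and 57.0% in ATCC and 56.4, 57.6 and 39.4% in DSMZ. These ranges overlapped, with DSMZ replicate 3 low, so the choice between the 2 forms did not separate the sources.

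Before the downstream start used by IRF5-208 lies 1 match to the core of the composite ETS and IRF element (GGAANNGAA), on which PU.1 and IRF8 or IRF4 bind together. It is in capitals, as the reverse complement, in these 30 bases at chr7:128940627-128940656 (RefSeq, GRCh38.p14, plus strand).
IRF5 upstream of IRF5-208: gtctagccactTTCGTTTCCcctggggccg
These letters occur in 7.79% of the promoter windows. IRF5-208 had 8.46, 12.3 and 9.07 TPM in ATCC and 5.90, 7.34 and 3.45 in DSMZ. A further IRF5 window holds a match to the interferon-stimulated response element core GAAANNGAA, as 8.11% of windows do. Promoter windows were found for 7 of the 9 genes, all but BATF3 and IRF2. The IRF8 windows are set on starts at 85902830 and 85903015, and the BATF2 window on a start at 64990277. The starts of IRF8-201 (85898803) and BATF2-201 (64997045) lie outside these windows, so the sequence before them was not searched.

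**Figure D2:**
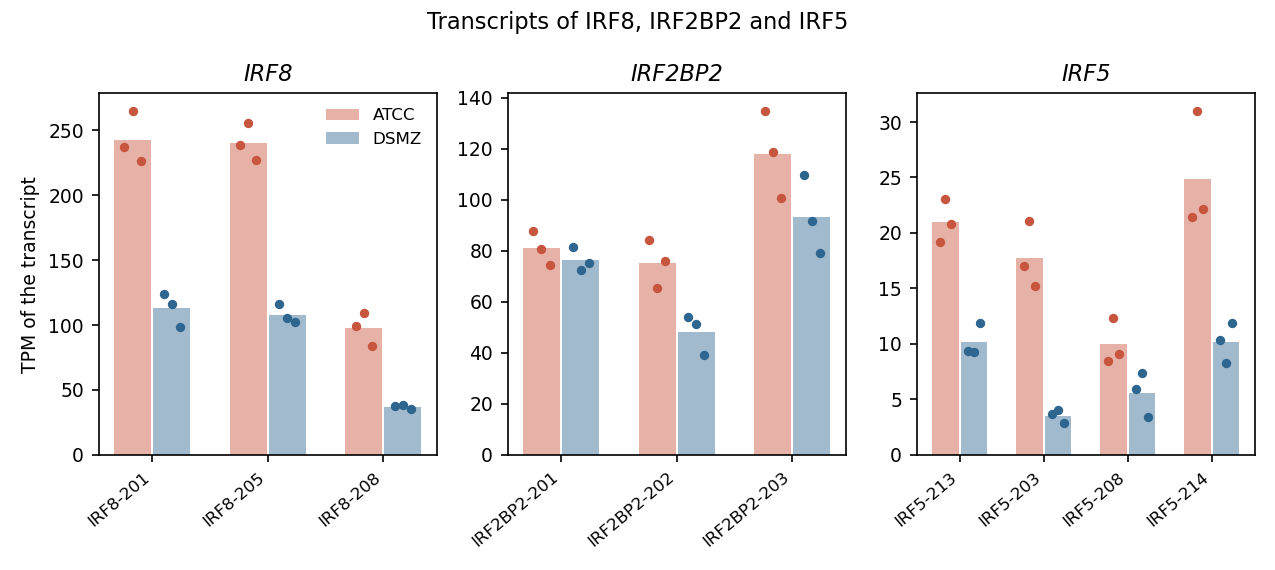
TPM of the main transcripts of IRF8, IRF2BP2 and IRF5, with bars at the mean of 3 libraries per source and points for the libraries, each panel with its own axis from 0. All plotted transcripts of IRF8 and IRF5 were lower in every DSMZ library than in any ATCC library, whereas IRF2BP2-201 overlapped (81.0 and 76.4 TPM) and IRF2BP2-202 did not (75.2 and 48.2 TPM).

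IRF2BP2, a corepressor first found as a partner of IRF2, differed far less between the sources than IRF8. In counts it was below IRF8 in every ATCC library and above it in every DSMZ library. The gene (ENSG00000168264) lies on the minus strand of chromosome 1, 234604269 to 234609525. Its levels were 679.5, 621 and 608 CPM in ATCC and 565, 504 and 486 CPM in DSMZ. The groups did not overlap, but their nearest libraries were close. The log2 difference was -0.30 ± 0.09 SE (95% interval -0.51 to -0.08, edgeR adjusted p = 0.0304). This call is not firm: the edgeR adjusted p was 0.0611 without ATCC replicate 1, 0.0519 without ATCC replicate 3, 0.120 without DSMZ replicate 2, 0.129 without DSMZ replicate 3 and 0.0536 with an offset for transcript length.

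The 2 full-length transcripts of IRF2BP2 did not differ alike. They are separated by 48 coding bases at chr1:234608447-234608494 (GRCh38, minus strand), which IRF2BP2-201 keeps and IRF2BP2-202 leaves out. The lines show them as above, with the stretch in capitals.
IRF2BP2-201: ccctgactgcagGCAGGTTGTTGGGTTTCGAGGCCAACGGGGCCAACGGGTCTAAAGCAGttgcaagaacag
IRF2BP2-202: ccctgactgcagttgcaagaacag
The form with the stretch had 87.9, 80.7 and 74.3 TPM in ATCC and 81.5, 72.3 and 75.3 in DSMZ. The form without it had 84.3, 65.3 and 76.1 TPM in ATCC and 54.1, 51.2 and 39.3 in DSMZ. The first overlapped between the sources and the second did not. A short non-coding model, IRF2BP2-203, held the largest share of the gene's TPM, 43.0% in ATCC and 42.7% in DSMZ. Its TPM overlapped between the sources. In counts this model of 683 bases was the lowest of the 3 transcripts, at 869 to 1248 per library. IRF2BP2-201 had 7340 to 10860 counts and IRF2BP2-202 had 4816 to 8755. The form without the stretch made up 48.9, 44.8 and 50.6% of the pair in ATCC and 39.9, 41.4 and 34.3% in DSMZ. Over the 9 genes, 5 of 18 transcripts that held 5 to 95% of their gene's TPM had shares that did not overlap between the sources (IRF1-207, IRF2BP2-201, IRF2BP2-202, IRF5-203 and IRF8-208). Over all genes of at least 1 TPM this was 17.9% of 41769 transcripts. An antisense gene, AL160408.2, covers the same place and was too low to test.

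Genes around IRF2BP2 shifted in the same direction as it did. The 43 tested genes within 5 Mb had a median log2 difference of -0.39, with 22 higher in ATCC and 2 higher in DSMZ, so IRF2BP2 lay 0.10 above its neighbours. BATF3, on the same arm of chromosome 1, also had neighbours that were lower in DSMZ, as given below.

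The BATF proteins have no activation domain of their own and pair with JUN proteins. All 3 genes were lower in DSMZ, and all were far below IRF8. BATF, known for its part in T cell and B cell differentiation, lies on the plus strand of chromosome 14, 75522425 to 75547015. It had 9.78, 14.7 and 11.7 CPM in ATCC and 4.30, 4.35 and 2.97 CPM in DSMZ. The lowest ATCC library was above the highest DSMZ library by more than the spread within DSMZ. The difference was 3.13-fold (log2 difference -1.65 ± 0.21 SE, edgeR adjusted p = 0.000588), while the 71 genes within 5 Mb had a median of -0.06.

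BATF3, required for type 1 dendritic cells, lies on the minus strand of chromosome 1, 212686418 to 212699985. It had 7.06, 7.91 and 6.32 CPM in ATCC and 2.34, 3.36 and 2.22 CPM in DSMZ. No DSMZ library came near the ATCC range. The difference was 2.69-fold (log2 difference -1.43 ± 0.20 SE, edgeR adjusted p = 0.000769). Its 33 neighbours within 5 Mb had a median log2 difference of -0.57, 19 being higher in ATCC and 1 in DSMZ, so BATF3 lay 0.85 below that median. The ratio of BATF to BATF3 counts overlapped between the sources, at 1.39 to 1.86 in ATCC and 1.30 to 1.83 in DSMZ.

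BATF2, an interferon-induced member of the family in macrophages, was rare. It lies on the minus strand of chromosome 11, 64987943 to 64997045, and had 38, 36 and 20 counts in ATCC and 5, 8 and 16 in DSMZ. In CPM these are 1.34, 1.36 and 0.714 against 0.217, 0.283 and 0.445. ATCC replicate 3 and DSMZ replicate 3 were nearest to each other but did not overlap. The log2 difference was -1.79 ± 0.38 SE (edgeR adjusted p = 0.00579), and over the alternatives in which it was tested it ranged from -2.28 to -0.65. Among its 219 neighbours the median was -0.37, near the -0.36 of the whole of chromosome 11.

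**Figure D3:**
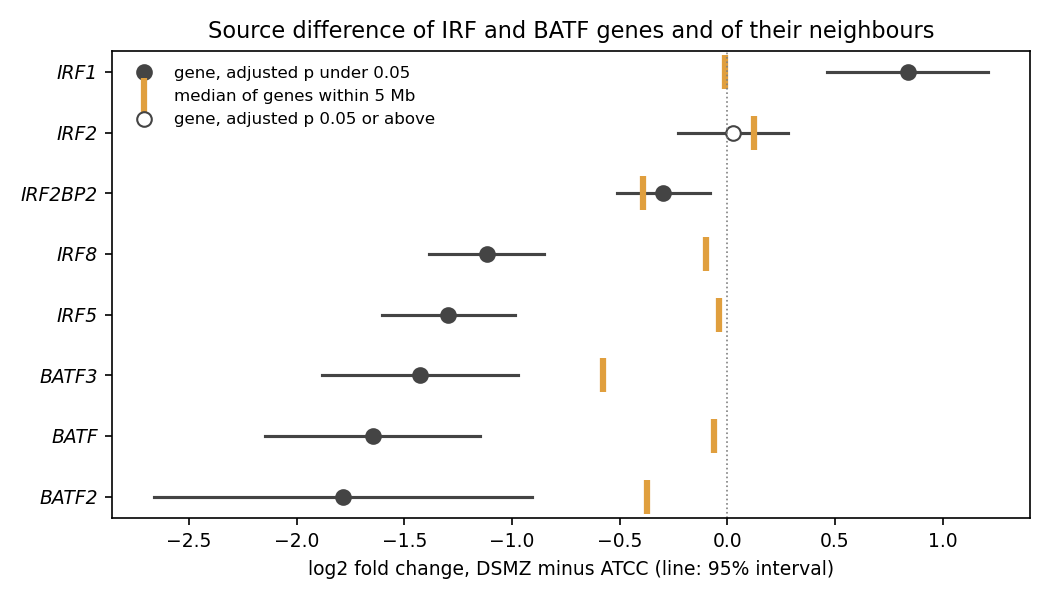
Log2 difference (DSMZ minus ATCC) of the 8 tested genes with its 95% interval, beside the median of the tested genes within 5 Mb of each (orange tick). For IRF8, IRF5, BATF, BATF2, BATF3 and IRF1 the interval does not reach the median of the neighbours, whereas for IRF2BP2 and IRF2 it does.

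Per transcript length, the order of the 9 genes was alike at the top in both sources. In ATCC, IRF8 (601 TPM) stood above IRF2BP2 (274) and IRF5 (93.9), followed by BATF (20.0), IRF2 (13.7), IRF1 (11.95) and BATF3 (11.02), then BATF2 (0.718) and IRF4 (0.071). There the range of IRF2 overlapped those of BATF, IRF1 and BATF3, and IRF1 overlapped BATF3, while BATF lay above IRF1 and BATF3 without overlap. In DSMZ the order was IRF8 (268 TPM), IRF2BP2 (218), IRF5 (37.9), IRF1 (22.7), IRF2 (16.6), BATF (6.35), BATF3 (3.94), BATF2 (0.271) and IRF4 (0.070). Only BATF and BATF3 overlapped as neighbours in that order. IRF1 thus stood above IRF2 and BATF in DSMZ. In ATCC its range overlapped that of IRF2 and lay below that of BATF.

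The remaining IRF genes and IRF2BP paralogs moved in both directions. All 5 on that list were tested, and 2 were higher in DSMZ and 2 in ATCC, beside 24.1% and 25.7% of all tested genes. IRF3, the sensor-activated inducer of interferon beta, had 49.9 ± 8.07 CPM in ATCC and 23.2 ± 1.24 in DSMZ (log2 difference -1.11 ± 0.14 SE), and IRF2BPL was also higher in ATCC (-0.56 ± 0.14 SE). IRF7, the amplifier of the type I interferon response, had 1.54 ± 0.373 and 2.99 ± 0.227 CPM (0.95 ± 0.21 SE), and IRF2BP1 was also higher in DSMZ (0.51 ± 0.14 SE). IRF9, the DNA-binding subunit of the interferon-activated ISGF3 complex, was at 5.81 and 6.88 CPM and did not pass. The median of the 5 was 0.24. The calls were few and moved: without any 1 library other than ATCC replicate 2, and with upper quartile normalization, only 1 gene was higher in DSMZ, and without ATCC replicate 3 or DSMZ replicate 2 only 1 was higher in ATCC.

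Among 9 DNA-binding partners of IRF and BATF factors, all tested, 4 were higher in ATCC and 1 in DSMZ. Of all tested genes, 25.7% were higher in ATCC and 24.1% in DSMZ. JUN, with which BATF proteins form dimers, had 30.9 ± 6.48 CPM in ATCC and 12.3 ± 1.40 in DSMZ (log2 difference -1.33 ± 0.17 SE), and JUND was at -0.39 ± 0.12. SPI1, the PU.1 gene, had 129.9 ± 20.2 and 97.6 ± 4.88 CPM (-0.41 ± 0.13), and NFATC2 had 42.8 ± 1.52 and 24.1 ± 3.65 CPM (-0.83 ± 0.13). STAT2, which joins IRF9 in ISGF3, was the gene higher in DSMZ (0.62 ± 0.13). SPIB, JUNB, NFIL3 and TCF3 did not pass, and the list's median was -0.22. Without ATCC replicate 3, DSMZ replicate 1 or DSMZ replicate 2 the number higher in ATCC was 2, and without ATCC replicate 2 the number higher in DSMZ was 2.

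Genes reported as IRF8 targets in myeloid cells did not move one way. The list does not split them by whether IRF8 is reported to raise or lower them. Of 13 on the list, 11 were tested: 4 were higher in DSMZ and 4 in ATCC, with a median log2 difference of 0.37. That median is the value of TLR9 (SE 1.3), which had 0, 20 and 0 counts in ATCC and 10, 0 and 18 in DSMZ. It is therefore no measure of a shift of the list. Over all tested genes, 24.1% were higher in DSMZ and 25.7% in ATCC. KLF4, a monocyte factor that IRF8 is known to induce, had 16.2 ± 1.60 CPM in ATCC and 5.09 ± 1.04 in DSMZ (-1.67 ± 0.18 SE). CST3, CTSC and PRDM1 were the other 3 higher in ATCC. CYBB, the catalytic subunit of the phagocyte oxidase, had 6.94 ± 3.26 CPM in ATCC and 20.5 ± 7.49 in DSMZ (1.55 ± 0.37 SE). CIITA, the master factor of MHC class II genes, had 3.34 ± 0.665 and 11.1 ± 2.39 CPM (1.73 ± 0.22 SE). IL1B (1.16 ± 0.25 SE) and the phosphatase PTPN13 (0.071 ± 0.061 and 3.66 ± 0.493 CPM) were the others higher in DSMZ. IL18, NF1 and TLR9 did not pass, and IL12B and ACOD1 were too low to test.

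Genes reported as IRF1 targets were likewise mixed, although IRF1 was higher in DSMZ. Of 14, 13 were tested: 3 were higher in DSMZ and 4 in ATCC, beside 24.1% and 25.7% of all tested genes. The median of the 13 was -0.07. The guanylate-binding protein gene GBP2 had 0.955 ± 0.028 CPM in ATCC and 4.42 ± 0.223 in DSMZ (2.21 ± 0.16 SE), and B2M, the light chain of MHC class I, had 1038 ± 67.5 and 1279 ± 79.0 CPM (0.30 ± 0.09 SE). CIITA is also on this list. The peptide transporter TAP1 (-0.47 ± 0.12 SE), the immunoproteasome subunits PSMB8 (-0.43 ± 0.12) and PSMB10 (-0.65 ± 0.13), and CASP1 (-0.50 ± 0.10) were higher in ATCC. GBP5, PSMB9, IL15, SOCS1, CD274 and NLRC5 did not pass, and GBP1 was too low to test. Without DSMZ replicate 2 or 3 the number higher in ATCC was 2.

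Of the 11 genes listed for type 1 dendritic cells, 8 could be tested and 3 passed, beside 49.8% of all tested genes. The list does not say which of them depend on BATF3 or IRF8. The defining markers CLEC9A and XCR1 had a mean of at most 0.019 CPM in either source, under the level that 3 counts over a source give (0.036 CPM in ATCC and 0.034 in DSMZ), and CLNK was also too low to test. Among those tested, ID2, a repressor of E proteins, had 86.9 ± 17.1 CPM in ATCC and 28.8 ± 11.3 in DSMZ (-1.60 ± 0.28 SE), and ZBTB46 was also higher in ATCC (-0.72 ± 0.14 SE). FLT3, the receptor for the dendritic cell growth factor FLT3 ligand, had 91.2 ± 9.92 and 203 ± 15.8 CPM (1.16 ± 0.11 SE) and was the gene higher in DSMZ. CADM1, THBD, WDFY4, SNX22 and CD226 did not pass, and the median was 0.09. Without ATCC replicate 1 the number higher in DSMZ was 2, without ATCC replicate 2 it was 3, and with a GC offset it was 4.

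**Figure D4:**
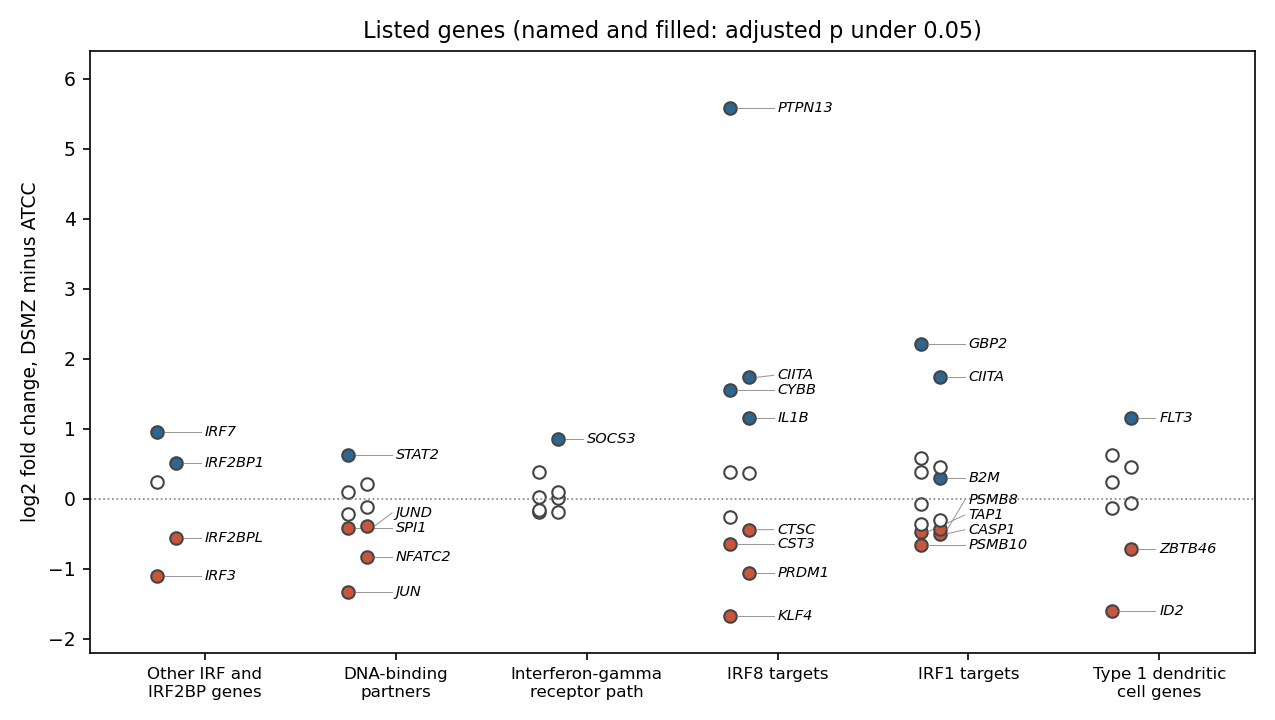
Log2 difference (DSMZ minus ATCC) of each tested gene of 6 lists, filled and named where the edgeR adjusted p was under 0.05 (blue higher in DSMZ, red higher in ATCC) and open otherwise. Named genes of both directions stand in every list but the interferon gamma receptor path, where SOCS3 alone passed.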

How the data were processed

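Poly(A) RNA of 6 THP-1 cultures, 3 per source, was sequenced after a stranded kit, per the labels' protocols. Per the submitters' processing notes, reads passed through bcl2fastq (2.20) and Trimmomatic (0.35), and kallisto (0.43.0) was used with GRCh38. The files deposited by the authors give for each transcript an estimated count (not normalized), a TPM value and an effective length, per the file headers. Target names without version were joined to GENCODE 29 symbols: 163714 transcripts (91.0%) matched on the primary assembly, 14387 by symbol only (2.43 to 2.85% of counts), and 1872 (at most 0.196% of counts) had no gene and were left out.

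Estimated counts were summed per gene, rounded to whole numbers and tested with edgeR 4.0.16 in R 4.3.3 (filterByExpr, TMM, quasi-likelihood F test, source as the only term, all 6 libraries), with Benjamini-Hochberg adjustment over all 14572 tested genes and a threshold of 0.05. The standard error is the absolute log2 difference divided by the square root of F, and the biological coefficient of variation was 15.9%. Counting intervals have 95% confidence and, like the floor of 3 counts, cover counting error only. No 2 libraries agreed within sampling noise (smallest chi-square per degree of freedom 4.59). On simulated data for DSMZ against ATCC with 14572 genes, the fit found 8 of 67 changes of 1.5-fold and 48 of 67 of 2-fold. It found 65 of 66 of 4-fold and made 7 false calls. The simulation changed only these genes, far fewer than passed in the real data, so its rates need not hold here.

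The 9 genes and the lists were chosen with earlier results of these data known. All 9 are named, any listed gene may be, and for IRF8 the 5 protein-coding genes nearest in centred log2 CPM. Some genes stand in 2 lists (SOCS1, CIITA, SPI1, SPIB), and some genes considered for the lists are not reported here. Alternatives changed the normalization, test (DESeq2 1.42.0, limma 3.58.1), filter, transcripts used, GC and length offsets, depth, replicate block and single libraries. Figures were drawn with matplotlib 3.10.9.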

Additional observations from a re-analysis of the deposited data

How the results depend on the processing

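IRF8 kept its direction and its side of the threshold in all 22 alternatives (log2 difference -1.20 to -1.01, highest adjusted p 0.00187). The same held for IRF1 (0.67 to 0.94), IRF5 (-1.42 to -1.14), BATF (-1.81 to -1.47) and BATF3 (-1.65 to -1.30) in 22 alternatives, and for BATF2 in the 21 in which it could be tested, all but a filter of at least 10 counts in every library. IRF2BP2 passed in 17 of 22. IRF2, never past the threshold, changed sign with upper quartile normalization (-0.050) and with library totals only (-0.019), and leaving out 1 library at a time gave -0.022 to 0.067; its highest values came with limma on log2 TPM (0.30 and 0.31) and with a transcript length offset (0.31), and the cause was not tested. IRF4 could be tested only with no filter on low counts (-0.82, adjusted p = 0.356). The number of genes called ranged from 5508 without DSMZ replicate 2 to 9509 without ATCC replicate 2. With a GC offset on all libraries it was 9301. In each alternative 6 or 7 of the 9 genes were called. Same-numbered libraries deviated together with correlations of 0.025, 0.131 and 0.213. These values are low and uneven, so they cannot decide whether the numbers pair the cultures. With a replicate block 7015 genes and 7 of the 9 were called. Depth limits IRF4 and BATF2, with 42 and 123 counts over all libraries.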
